A study of Mus musculus with 12 samples.

Results

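This account covers 10 single genes, of the 46603 genes counted, whose RNA separated Chd8+/- from Chd8+/+ mouse neocortex at 1 of 2 developmental stages and which belong to no shared gene family. Zcwpw1, Tmem209 and Sfxn1 were chosen at embryonic day 12.5 (E12.5). Dnajc4, Chmp2a, Csf2ra, Anapc11, Dhx9, 1110008P14Rik and 0610037L13Rik were chosen at postnatal day 5 (P5). They were picked by symbol from genotype differences in these same libraries, so that a gene's genotype difference at the stage that chose it is a description without a test. The other stage and the change between the stages did not enter the choice, and these were tested, though the stage contrasts share their libraries with the differences that chose the genes. All 10 genes passed the filter on low counts in each comparison. At the stage that chose it, each of the 10 passed DESeq2's adjusted threshold (0.0374% of genes did so at E12.5 and 5.28% at P5) and none passed edgeR's, which was the main test here. These calls hinge on the setting. When every gene with at least 1 count was tested, 2 of the 3 and 7 of the 7 passed in edgeR. It then called 13 of 29365 genes at E12.5 and 995 of 31265 at P5. Without P5 Chd8+/- replicate 2, 6 of the 7 P5 genes passed in edgeR, a setting that called 327 of 19044 genes. The list sets no numerical threshold of its own, so that no genes lie just inside or outside one.

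RNA was sequenced from microdissected neocortex of Chd8+/+ and Chd8+/- mice on a C57Bl/6J background at E12.5 (both hemispheres) and P5 (1 hemisphere), with 3 libraries for each genotype and stage and 12 in all. Chd8+/- mice carry 1 Chd8 allele in which exon 3 was deleted in all tissues by a beta-actin Cre transgene, so that every cell of the brain and body is heterozygous. The labels do not say whether the libraries came from separate animals, and the p-values therefore measure the spread between these libraries. Libraries held between 38774591 and 54695236 counts. One library, P5 Chd8+/- replicate 3, stood apart from its own group. A chi-square of its counts over genes, per degree of freedom, was 45.4 against replicate 1 and 39.98 against replicate 2, and between 6.58 and 16.7 for every other pair of libraries within a group. Stage goes together with the count table, the sequencing and the number of hemispheres, and these cannot be told apart. In dissected tissue, fewer cells of a type and less RNA per cell cannot be told apart either.

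CHD8 is a chromatin remodeling factor that binds near the start sites of many active genes, and loss of 1 copy is associated with autism. The 10 genes serve unrelated tasks. ZCWPW1 reads histone methylation and is known for its part in meiotic recombination, and DHX9 is a helicase that unwinds RNA and RNA-DNA hybrids. TMEM209 is a membrane protein of the nuclear envelope. SFXN1 carries serine into mitochondria for one-carbon metabolism, and DNAJC4 is a J-domain partner of heat shock chaperones. CHMP2A is a subunit of the ESCRT-III complex that cuts membrane necks. ANAPC11 is the RING subunit of the anaphase-promoting complex (APC/C), the ubiquitin ligase that drives cells out of mitosis. CSF2RA is the ligand-binding chain of the receptor for GM-CSF, a growth factor of myeloid cells, and in brain it is known from microglia. 0610037L13Rik carries the symbol Czib in RefSeq.

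Chd8 itself was measured first as a check of the labels. Values are CPM, counts relative to the library total after scaling by the trimmed mean of M-values (TMM) over all 12 libraries, with the SD of 3 libraries. Genotype differences are log2 fold changes (log2FC) of Chd8+/- against Chd8+/+ with their standard error (SE). Chd8 was at 232.5 ± 3.55 CPM in Chd8+/+ and 163.5 ± 3.31 CPM in Chd8+/- libraries at E12.5, a log2FC of -0.51. At P5 it was at 149 ± 3.11 and 96.5 ± 1.93 CPM, a log2FC of -0.61. Chd8 was lower in all 6 Chd8+/- libraries than in the Chd8+/+ libraries of their stage. One library of each group, 4 in all, had high counts of Xist, the RNA of the inactive X chromosome, and lacked Y-linked transcripts. At P5 these were Chd8+/+ replicate 1 and Chd8+/- replicate 1. With a term for these libraries, added after the data were seen, no log2FC of the 10 genes moved to the other direction or to the other side of the threshold.

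Of the 10 genes, 5 separated the genotypes in the same direction at both stages. Zcwpw1, Dnajc4, Chmp2a and Anapc11 were higher in every Chd8+/- than in every Chd8+/+ library at E12.5 and again at P5, and Sfxn1 was lower. Among the 17146 genes tested at both stages, 331 (1.93%) did so. Each of the 10 genes had been chosen to separate at 1 stage, and a closer background is the share of such genes that also separate at the other. Of the genes that were higher without overlap at P5, 9.99% were higher without overlap at E12.5 as well, against 3 of the 6 genes chosen as higher at P5. The share was 6.88% for lower genes, and Dhx9, the 1 gene chosen as lower there, was not among them. Of those higher at E12.5, 15.1% were also higher at P5, against 1 of the 2 chosen genes. Of those lower at E12.5, 18.9% were also lower at P5, and Sfxn1, which was, is the 1 gene chosen as lower at that stage. The genes behind these shares separate by any amount, while the 10 genes also passed DESeq2's threshold at the stage that chose them, so the sets are not alike. These are shares without a test, and none of the 5 genes passed the adjusted threshold at the stage that had not chosen it.

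The start regions of these 5 genes are printed because their differences ran the same way at both stages. Each is the RefSeq sequence of GRCm38.p6 from 250 bases before the start to 50 bases after it, on the gene's strand, 5′ to 3′, taken at the listed start nearest to that of the counted gene. Capitals mark matches to any of 6 motifs on either strand, namely CCGGAAG (ETS factors), GCATGCG (core of the NRF1 motif), GGGCGG (GC box), CCAAT (the CCAAT box), CACGTG (the E-box) and TATAAA (the TATA box). Adjoining matches run together as 1 stretch of capitals. The regions are chr5:137787552-137787851 (+) for Zcwpw1, chr19:6992469-6992768 (-) for Dnajc4, chr7:13034728-13035027 (-) for Chmp2a, chr11:120598171-120598470 (+) for Anapc11 and chr13:54071595-54071894 (+) for Sfxn1.
Zcwpw1: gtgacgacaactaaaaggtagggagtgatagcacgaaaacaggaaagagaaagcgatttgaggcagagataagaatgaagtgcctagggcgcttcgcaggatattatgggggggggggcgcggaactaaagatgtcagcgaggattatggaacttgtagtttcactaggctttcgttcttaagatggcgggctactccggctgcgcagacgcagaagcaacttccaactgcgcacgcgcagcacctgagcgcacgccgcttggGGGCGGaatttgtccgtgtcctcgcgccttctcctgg
Dnajc4: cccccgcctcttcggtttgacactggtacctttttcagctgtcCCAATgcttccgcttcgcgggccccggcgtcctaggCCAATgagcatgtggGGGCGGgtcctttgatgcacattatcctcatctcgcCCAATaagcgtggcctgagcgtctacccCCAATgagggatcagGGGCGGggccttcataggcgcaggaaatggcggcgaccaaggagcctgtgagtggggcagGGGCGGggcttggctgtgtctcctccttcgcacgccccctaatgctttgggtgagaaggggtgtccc
Chmp2a: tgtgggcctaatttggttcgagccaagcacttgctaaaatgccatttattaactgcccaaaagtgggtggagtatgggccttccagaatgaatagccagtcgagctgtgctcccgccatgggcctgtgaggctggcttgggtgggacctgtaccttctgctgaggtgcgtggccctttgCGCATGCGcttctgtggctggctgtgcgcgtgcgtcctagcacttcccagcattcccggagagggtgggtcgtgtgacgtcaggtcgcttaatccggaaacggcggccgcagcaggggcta
Anapc11: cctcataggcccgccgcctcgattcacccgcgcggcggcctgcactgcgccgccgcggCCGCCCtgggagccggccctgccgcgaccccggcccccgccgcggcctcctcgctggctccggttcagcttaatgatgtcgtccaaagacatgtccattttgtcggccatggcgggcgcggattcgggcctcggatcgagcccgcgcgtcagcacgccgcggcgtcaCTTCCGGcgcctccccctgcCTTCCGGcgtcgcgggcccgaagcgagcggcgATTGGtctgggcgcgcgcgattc
Sfxn1: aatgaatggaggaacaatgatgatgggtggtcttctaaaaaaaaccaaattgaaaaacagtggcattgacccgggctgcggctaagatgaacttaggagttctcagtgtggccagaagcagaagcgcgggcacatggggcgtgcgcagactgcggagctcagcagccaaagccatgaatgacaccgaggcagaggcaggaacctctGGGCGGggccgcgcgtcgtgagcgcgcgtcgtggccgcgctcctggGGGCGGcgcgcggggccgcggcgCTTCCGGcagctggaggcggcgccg
In the Chmp2a region the capitals are a single stretch that reads as the NRF1 core on both strands, and 6.11% of the 12000 RefSeq start regions of tested genes held this core. Dnajc4 held CCAAT at 4 places and the GC box at 3. Anapc11 held the ETS motif at 2 places, Sfxn1 at 1, and the others of the 5 had none. Over all 10 genes the ETS motif was found in 5 start regions, against 16.4% of those of tested genes and 9.12% of all 27025. The GC box was found in 8 of 10 (62.9% of those of tested genes), CCAAT in 3 (38.4%), and the E-box (9.67%) and TATAAA (7.16%) in none. A match describes letters and not binding, and the letters were not related to the size of the differences.

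**Figure D1:**
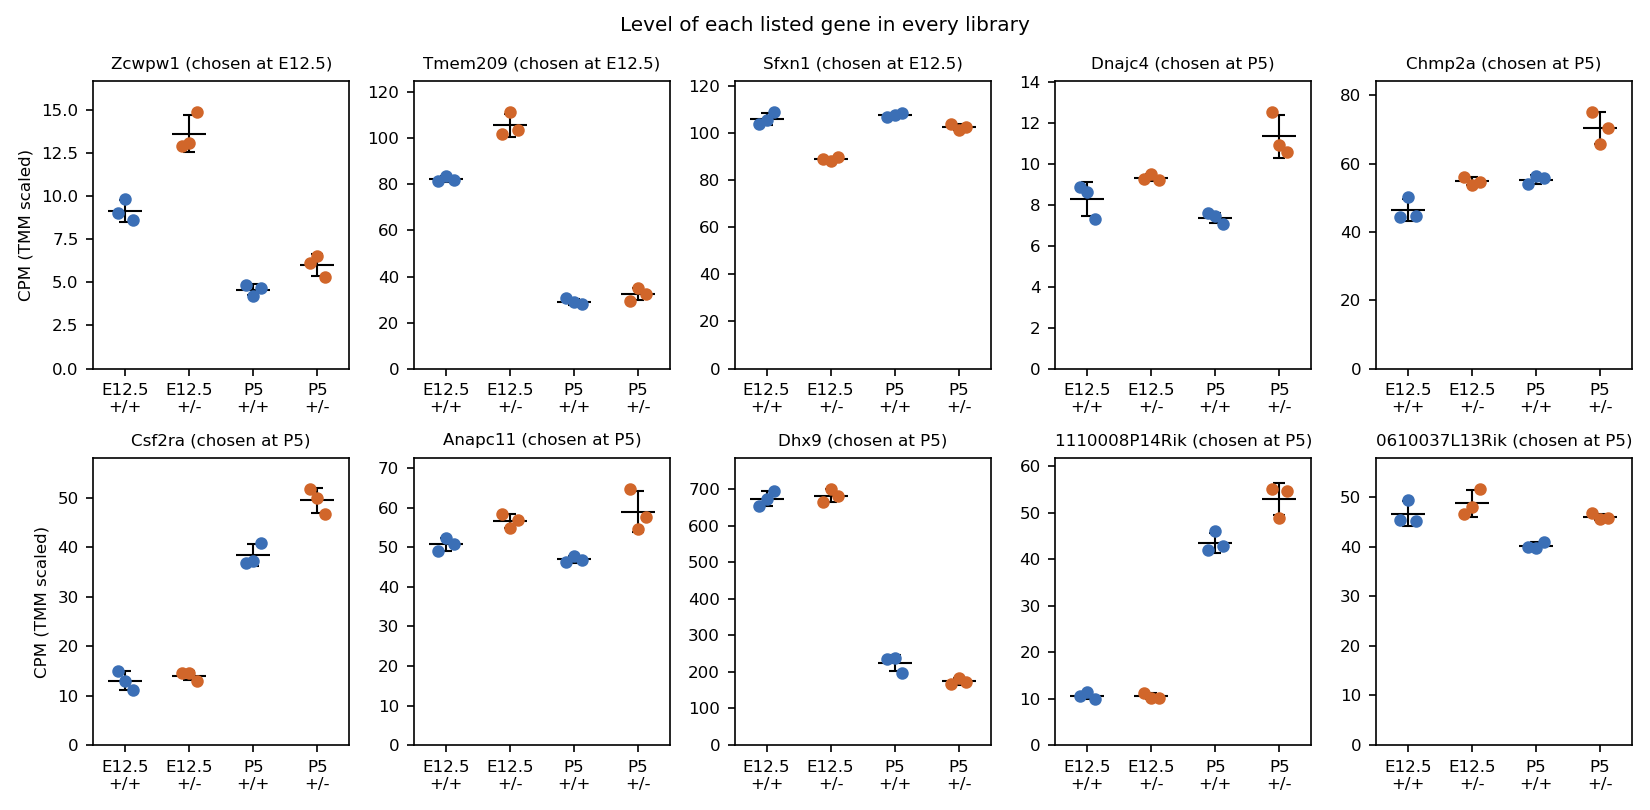
CPM of each of the 10 genes (vertical axes, starting at 0) in the 12 libraries, in the order E12.5 Chd8+/+, E12.5 Chd8+/-, P5 Chd8+/+ and P5 Chd8+/-. Blue points are Chd8+/+ and orange points Chd8+/- libraries, and the line and bar are the mean and SD of 3 libraries. Zcwpw1, Dnajc4, Chmp2a, Anapc11 and Sfxn1 show separate groups at both stages.

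Among the 3 genes chosen at E12.5, Zcwpw1 (ENSMUSG00000037108, chr5:137787798-137822621, + strand) had the largest difference. It was at 9.02, 9.84 and 8.59 CPM in Chd8+/+ replicates 1 to 3 at E12.5 and at 12.9, 13.1 and 14.9 CPM in the Chd8+/- replicates, and the lowest Chd8+/- library was 1.31 times the highest Chd8+/+ library. Tmem209 (ENSMUSG00000029782, chr6:30479053-30509783, - strand) was at 81.6, 83.8 and 81.9 CPM in Chd8+/+ and 102.1, 111.4 and 103.8 CPM in Chd8+/- libraries. Sfxn1 (ENSMUSG00000021474, chr13:54071845-54108346, + strand) was at 103.8, 105.6 and 108.9 CPM in Chd8+/+ and 89.2, 88.4 and 89.9 CPM in Chd8+/- libraries. Zcwpw1 and Tmem209 were thus high and Sfxn1 low in all 3 Chd8+/- libraries. The log2FCs were 0.57 (SE 0.0895) for Zcwpw1, 0.36 (0.0464) for Tmem209 and -0.25 (0.0398) for Sfxn1. These values chose the genes. At this stage 11.4% of the 18081 genes tested had groups that did not overlap.

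At P5, which did not choose them, none of the 3 genes passed edgeR's quasi-likelihood test after Benjamini-Hochberg adjustment over 18666 genes, of which it called 0.00536%. DESeq2 called none of the 3 either (5.28% of all genes), and at an unadjusted p under 0.05 in edgeR Zcwpw1 and Tmem209 passed, as did 17.8% of all genes. Zcwpw1 was at 4.86, 4.203 and 4.68 CPM in Chd8+/+ and 6.13, 6.53 and 5.30 CPM in Chd8+/- libraries. All Chd8+/- libraries were again the higher ones, the closest by 1.09 times. The log2FC was 0.40 (SE 0.109, edgeR adjusted p = 0.128), and Zcwpw1 alone passed (adjusted p = 0.0464) when every gene with at least 1 count was tested.

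Tmem209 was at 30.5, 28.9 and 27.9 CPM in Chd8+/+ and 29.5, 34.8 and 32.5 CPM in Chd8+/- libraries at P5. Here the groups overlapped, because Chd8+/- replicate 1 lay below Chd8+/+ replicate 1, and the log2FC was 0.17 (SE 0.0651, edgeR adjusted p = 0.225) that was 0.11 without Chd8+/- replicate 2. Sfxn1 was at 107.0, 107.7 and 108.7 CPM in Chd8+/+ and 103.9, 101.5 and 102.6 CPM in Chd8+/- libraries. Its groups stayed apart with the Chd8+/- libraries lower, but by little, with a log2FC of -0.054 (SE 0.0316, edgeR adjusted p = 0.401). At P5 the groups of 23.4% of all tested genes did not overlap.

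The 7 genes chosen at P5 comprised 6 that were higher in Chd8+/- neocortex and Dhx9, which was lower. The largest difference was that of Dnajc4 (ENSMUSG00000024963, chr19:6987911-6992503, - strand), with 7.58, 7.44 and 7.08 CPM in Chd8+/+ and 12.5, 10.9 and 10.6 CPM in Chd8+/- libraries. Chmp2a (ENSMUSG00000033916, chr7:13032006-13034777, - strand) was at 54.0, 56.4 and 55.8 CPM in Chd8+/+ and 75.1, 65.8 and 70.4 CPM in Chd8+/- libraries. For both genes the Chd8+/- libraries stood clear of the Chd8+/+ libraries, and replicate 1 was the highest. The log2FCs were 0.64 (SE 0.0856) for Dnajc4 and 0.36 (0.0499) for Chmp2a, again as values that chose the genes.

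Csf2ra (ENSMUSG00000059326, chr19:61224402-61228418, - strand) was at 36.9, 37.3 and 40.9 CPM in Chd8+/+ and 51.9, 49.98 and 46.8 CPM in Chd8+/- libraries at P5. Anapc11 (ENSMUSG00000025135, chr11:120598421-120608198, + strand) was at 46.3, 47.9 and 46.8 CPM in Chd8+/+ and 64.9, 54.6 and 57.7 CPM in Chd8+/- libraries. The spread among the Chd8+/- libraries was wider than that among the Chd8+/+ libraries for Anapc11 (SD 5.25 against 0.825 CPM) and close to it for Csf2ra (2.54 against 2.20 CPM). Their log2FCs were 0.38 (SE 0.0563) for Csf2ra and 0.35 (0.0595) for Anapc11.

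Dhx9 (ENSMUSG00000042699, chr1:153455758-153487660, - strand) was at 235.6, 237.4 and 198.1 CPM in Chd8+/+ and 165.7, 184.4 and 171.7 CPM in Chd8+/- libraries. Its groups did not overlap, but Chd8+/+ replicate 3 lay nearer to the Chd8+/- libraries than to the others of its own group. Its log2FC was -0.35 (SE 0.0667), and without that library -0.42. 1110008P14Rik (ENSMUSG00000039195, chr2:32377097-32381938, - strand) was at 41.9, 46.1 and 42.8 CPM in Chd8+/+ and 55.2, 49.0 and 54.6 CPM in Chd8+/- libraries, with a log2FC of 0.30 (0.0564). 0610037L13Rik (ENSMUSG00000028608, chr4:107889813-107899384, + strand) was at 39.9, 39.7 and 41.0 CPM in Chd8+/+ and 46.7, 45.6 and 45.7 CPM in Chd8+/- libraries, with a log2FC of 0.21 (0.0408). It had the smallest difference of the 7 together with groups that were tight for its level.

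Each of these P5 values was also taken without single libraries. Chd8+/- replicate 1 was the farthest from the Chd8+/+ libraries in 7 of the 7 genes. Without it the log2FCs were 0.56 for Dnajc4, 0.31 for Chmp2a, 0.35 for Csf2ra, 0.27 for Anapc11, 0.27 for 1110008P14Rik, 0.20 for 0610037L13Rik and -0.31 for Dhx9, in the same directions. Without Chd8+/- replicate 3, the library that stood apart from its group over all genes, Dnajc4 was at 0.69, Chmp2a at 0.37, Csf2ra at 0.43, Anapc11 at 0.37, 1110008P14Rik at 0.28, 0610037L13Rik at 0.22 and Dhx9 at -0.33, again in the same directions. Without it Zcwpw1, Tmem209 and Sfxn1 were at 0.49, 0.17 and -0.044 at P5, and none of these 3 passed edgeR's adjusted threshold. Replicate 1 also had the strongest trend of its counts with gene length, with a Spearman correlation of -0.28 over 18666 genes between its deviation from the P5 mean and exonic length. The correlation was -0.14 for Chd8+/- replicate 3, 0.0093 for Chd8+/- replicate 2 and between 0.10 and 0.20 in the Chd8+/+ libraries.

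At E12.5, which did not choose these 7 genes, edgeR called none of them, and 0.00553% of 18081 genes. DESeq2, which called 0.0374% of genes, called none of the 7 as well. At an unadjusted p under 0.05 in edgeR, Chmp2a and Anapc11 passed, 2 of 7, against 5.15% of all genes, and the groups of 3 of 7 did not overlap, against 11.4% of all genes.

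Chmp2a was at 44.3, 50.1 and 44.8 CPM in Chd8+/+ and 56.0, 53.7 and 54.7 CPM in Chd8+/- libraries at E12.5. All Chd8+/- libraries were above all Chd8+/+ libraries, and the log2FC was 0.24 (SE 0.0632, edgeR adjusted p = 0.928). Anapc11 was at 49.2, 52.5 and 50.9 CPM in Chd8+/+ and 58.5, 54.8 and 57.0 CPM in Chd8+/- libraries, again without overlap, with a log2FC of 0.16 (SE 0.0539, edgeR adjusted p = 0.942). Dnajc4 was at 8.89, 8.64 and 7.32 CPM in Chd8+/+ and 9.26, 9.53 and 9.21 CPM in Chd8+/- libraries. Its groups were separate by 1.04 times at the closest, with a log2FC of 0.17 (SE 0.0941, edgeR adjusted p = 0.944) that was 0.088 without Chd8+/+ replicate 3.

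The other 4 genes did not separate the genotypes at E12.5. Csf2ra was at 14.9, 12.9 and 11.1 CPM in Chd8+/+ and 14.6, 14.6 and 12.9 CPM in Chd8+/- libraries (log2FC 0.11, SE 0.110). 0610037L13Rik was at 45.3, 49.5 and 45.1 CPM in Chd8+/+ and 46.5, 48.0 and 51.7 CPM in Chd8+/- libraries (log2FC 0.063, SE 0.0646). Both overlapped between the genotypes, and both values moved with single libraries. Csf2ra was at 0.0088 without Chd8+/+ replicate 3 and 0.22 without Chd8+/+ replicate 1, and 0610037L13Rik between 0.016 (without Chd8+/- replicate 3) and 0.11 (without Chd8+/+ replicate 2). Dhx9 was at 653.9, 671.8 and 693.9 CPM in Chd8+/+ and 664.8, 700.7 and 680.0 CPM in Chd8+/- libraries (log2FC 0.018, SE 0.0514), and 1110008P14Rik at 10.5, 11.5 and 9.97 CPM and at 11.3, 10.2 and 10.2 CPM (log2FC -0.017, SE 0.0858). The signs of Dhx9 and 1110008P14Rik at E12.5 changed when single libraries were left out.

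**Figure D2:**
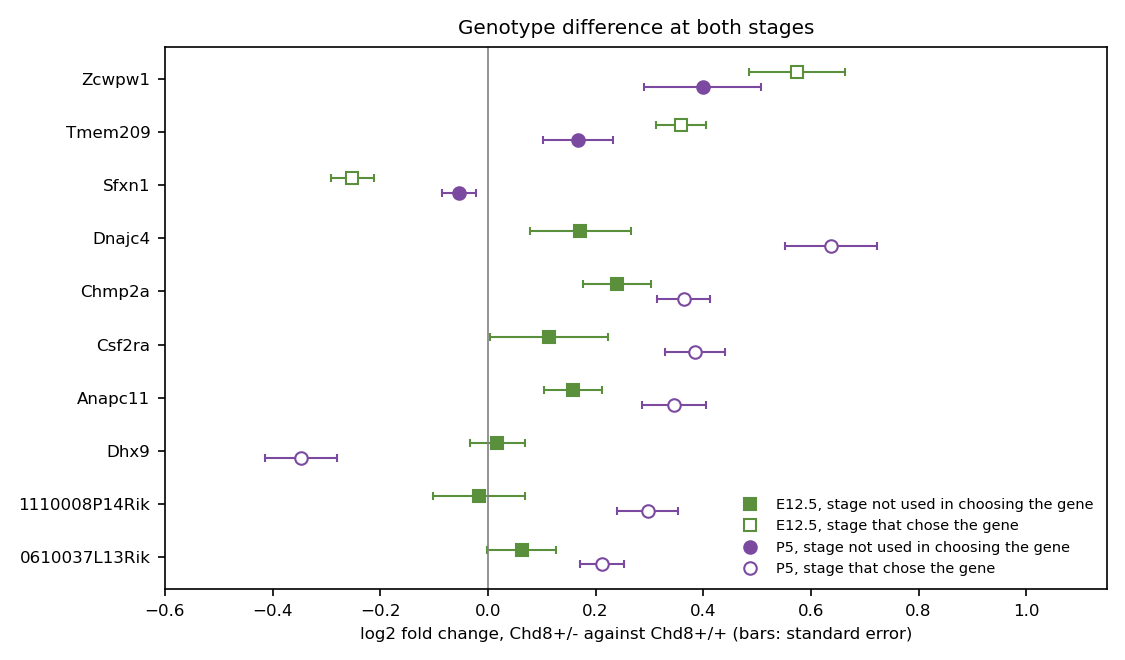
Log2 fold change of Chd8+/- against Chd8+/+ (horizontal axis, bars: standard error) of the 10 genes at E12.5 (green squares) and P5 (purple circles). Open symbols are the stage that chose the gene and filled symbols the stage that did not. In all 10 genes the filled symbol lies nearer to 0 than the open one. The genes were chosen for the open values, so that this can follow from the choice alone.

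The genes were next placed in development, a contrast that the choice had not used. The groups that chose a gene also enter its stage changes, so that these p-values are not independent of the choice. Between E12.5 and P5, 7 of the 10 genes passed edgeR's test in Chd8+/+ libraries, 3 higher and 4 lower at P5, and 8 of 10 passed in Chd8+/- libraries, 5 higher and 3 lower. DESeq2 called 7 and 8 as well. Among all 19676 genes tested, edgeR called 83.1% in Chd8+/+ (41.4% higher, 41.7% lower) and 82.9% in Chd8+/- (41.3% higher, 41.6% lower), so that the 10 genes changed about as often as genes at large.

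1110008P14Rik rose most, from 10.7 ± 0.758 to 43.6 ± 2.18 CPM in Chd8+/+, a log2FC of 2.03 (SE 0.0724, adjusted p = 1.56e-12), and from 10.5 ± 0.613 to 52.9 ± 3.44 CPM in Chd8+/-, one of 2.33 (0.0731, adjusted p = 3.76e-13). Csf2ra rose from 12.97 ± 1.93 to 38.4 ± 2.20 CPM in Chd8+/+ (log2FC 1.56, adjusted p = 6.00e-10) and from 14.04 ± 0.966 to 49.6 ± 2.54 CPM in Chd8+/- (1.82, adjusted p = 1.01e-10). Chmp2a rose by less, with log2FCs of 0.26 (SE 0.0581, adjusted p = 9.40e-04) in Chd8+/+ and 0.36 (0.0578, adjusted p = 4.05e-05) in Chd8+/-. For 1110008P14Rik and Csf2ra every P5 library lay far above every E12.5 library, and the E12.5 levels of the genotypes overlapped while the P5 levels did not.

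Dhx9 fell most. It went from 673.2 ± 20.04 to 223.7 ± 22.2 CPM in Chd8+/+, a log2FC of -1.59 (SE 0.0687, adjusted p = 1.42e-11), and from 681.8 ± 18.1 to 173.9 ± 9.52 CPM in Chd8+/-, one of -1.97 (0.0696, adjusted p = 1.39e-12). Tmem209 fell from 82.4 ± 1.22 to 29.1 ± 1.30 CPM in Chd8+/+ (log2FC -1.50, adjusted p = 5.25e-12) and from 105.8 ± 4.96 to 32.3 ± 2.68 CPM in Chd8+/- (-1.71, adjusted p = 1.21e-12). Zcwpw1 fell from 9.15 ± 0.634 to 4.58 ± 0.339 CPM in Chd8+/+ (log2FC -0.99, adjusted p = 2.79e-07) and from 13.6 ± 1.08 to 5.99 ± 0.628 CPM in Chd8+/- (-1.19, adjusted p = 2.71e-08). The P5 level of Zcwpw1 in Chd8+/- libraries was below its E12.5 level in Chd8+/+ libraries.

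Sfxn1, Dnajc4, Anapc11 and 0610037L13Rik changed little between the stages. Sfxn1 was at 106.1 ± 2.55 and 107.8 ± 0.856 CPM in Chd8+/+ at E12.5 and P5 (log2FC 0.023, adjusted p = 0.504), while in Chd8+/- it rose from 89.1 ± 0.747 to 102.7 ± 1.24 CPM (0.20, SE 0.0310, adjusted p = 2.44e-05). Dnajc4 was at 8.28 ± 0.845 and 7.37 ± 0.256 CPM in Chd8+/+ (log2FC -0.17, adjusted p = 0.0956) and rose from 9.33 ± 0.171 to 11.4 ± 1.04 CPM in Chd8+/- (0.28, SE 0.0878, adjusted p = 0.00857). The rise of Dnajc4 rested on P5 Chd8+/- replicate 1, without which it was 0.20 (adjusted p = 0.0528), and without E12.5 Chd8+/+ replicate 3 its Chd8+/+ value was -0.25 (adjusted p = 0.0190). The Chd8+/- rises of both genes use values that chose them, since Sfxn1 was chosen as low at E12.5 and Dnajc4 as high at P5. The difference between the genotypes in these changes also uses the values that chose the genes and was not tested.

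Anapc11 was at 50.9 ± 1.66 and 47.0 ± 0.825 CPM in Chd8+/+ (log2FC -0.11, adjusted p = 0.0869) and at 56.8 ± 1.84 and 59.1 ± 5.25 CPM in Chd8+/- (0.058, adjusted p = 0.373). Its Chd8+/+ value passed without E12.5 Chd8+/+ replicate 1 (-0.16, adjusted p = 0.0446) or without P5 Chd8+/- replicate 1 (-0.12, adjusted p = 0.0314). 0610037L13Rik fell from 46.6 ± 2.48 to 40.2 ± 0.694 CPM in Chd8+/+ (log2FC -0.21, SE 0.0535, adjusted p = 0.00187) and was at 48.7 ± 2.68 and 46.0 ± 0.620 CPM in Chd8+/- (-0.083, adjusted p = 0.162, and -0.022 without E12.5 Chd8+/- replicate 3). These small stage values also depended on the scaling. With offsets for gene length the median stage log2FC of all genes moved from -0.018 to -0.24 in Chd8+/+ and from -0.0046 to -0.20 in Chd8+/-. Sfxn1 was then at -0.26 in Chd8+/+ and -0.067 in Chd8+/-, and Anapc11 at -0.38 and -0.16, so that their values turned negative, Anapc11's in Chd8+/- and Sfxn1's in both genotypes. The number called in Chd8+/+ went from 7 to 10, while over all genes it went from 8203 to 9528 lower and from 8154 to 7006 higher. Sfxn1 was then a called fall in Chd8+/+ (adjusted p = 3.51e-05) and its rise in Chd8+/- was lost (adjusted p = 0.159). Anapc11 passed in both genotypes (adjusted p = 1.67e-04 and 0.0494), and 0610037L13Rik was at -0.47 in Chd8+/+ (adjusted p = 3.98e-06) and passed in Chd8+/- (-0.29, adjusted p = 5.55e-04). Chmp2a still rose, by 0.16 in Chd8+/+ (adjusted p = 0.0211) and 0.25 in Chd8+/- (adjusted p = 0.00142). Dnajc4 was at -0.31 (adjusted p = 0.00355) and 0.12 (adjusted p = 0.177). The 8 genes other than Sfxn1 and Anapc11 kept their directions with the offsets.

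**Figure D3:**
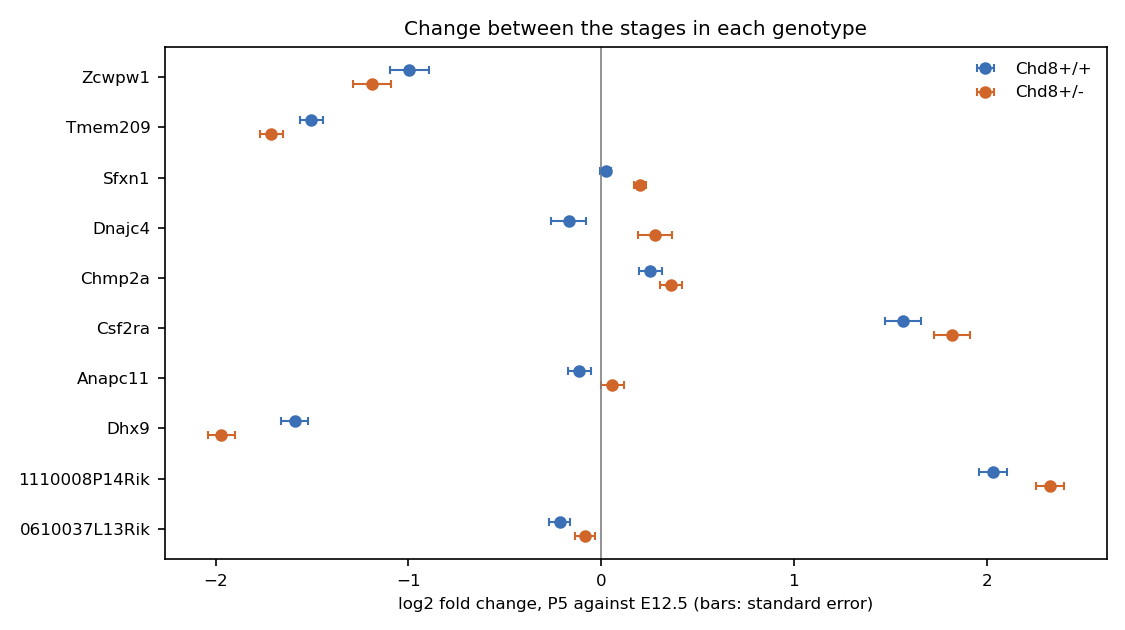
Log2 fold change of P5 against E12.5 (horizontal axis, bars: standard error) of the 10 genes in Chd8+/+ (blue) and Chd8+/- (orange) libraries. 1110008P14Rik (2.03 and 2.33) and Csf2ra (1.56 and 1.82) lie farthest to the right, and Dhx9 (-1.59 and -1.97) and Tmem209 (-1.50 and -1.71) farthest to the left.

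Levels of different genes can be set side by side only per length. Per kilobase of exons and averaged over 12 libraries, the order was Chmp2a (61.2 CPM per kb), Dhx9 (45.6), Sfxn1 (36.1), Csf2ra (15.5), 1110008P14Rik (10.9), Anapc11 (10.6), Dnajc4 (8.46), 0610037L13Rik (8.05), Tmem209 (6.33) and Zcwpw1 (1.46). Chmp2a was above 96.3% of the tested genes and Zcwpw1 above 34.0%. Stage reorders them, since Dhx9 led at E12.5 with 70.1 CPM per kb in Chd8+/+ and Chmp2a at P5 with 59.7. Over the 12 libraries the ranges of neighbours in this order overlapped, except between Sfxn1 and Csf2ra and between Tmem209 and Zcwpw1.

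Gene length mattered at P5 for another reason. The median log2FC between the genotypes ran from 0.060 in the shortest of 5 equal bins of exonic length to -0.044 in the longest bin, while at E12.5 it stayed between -0.0043 and 0.0047. Dnajc4, with 1074 exonic bases, and Chmp2a, with 927, lie among the shortest 9.48% and 7.59% of tested genes, and Dhx9, with 9603, above 93.2% of them. Offsets that took out the length trend of each library left 0.60 for Dnajc4, 0.32 for Chmp2a, 0.36 for Csf2ra, 0.37 for Anapc11, 0.29 for 1110008P14Rik, 0.24 for 0610037L13Rik and -0.29 for Dhx9. The P5 values of Zcwpw1 and Tmem209, long genes chosen at E12.5, went from 0.40 to 0.43 and from 0.17 to 0.23. With the offsets all 10 genes kept their direction at both stages.

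**Figure D4:**
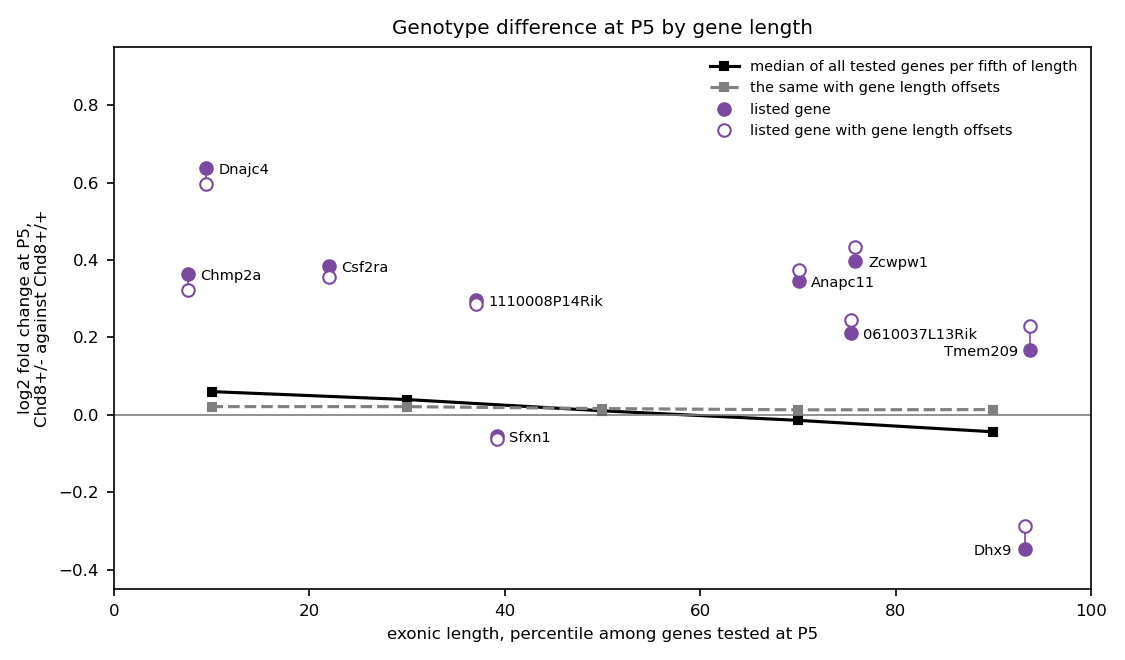
Log2 fold change of Chd8+/- against Chd8+/+ at P5 (vertical axis) by percentile of exonic length (horizontal axis). The black line is the median of all genes tested in each of 5 length bins and falls from 0.060 to -0.044, and the dashed grey line is the same with length offsets. Purple points are the 10 genes, filled as fitted and open with length offsets; each gene's pair lies close together against its distance from the lines.

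Counts of 2 of the genes could be touched by overlapping genes, because the counting command recorded with the P5 table sets no strand and none is recorded with the E12.5 table. In 1110008P14Rik, 728 bases (27.0% of its exons) are shared with Ciz1 on the opposite strand. Ciz1, which encodes a DNA replication factor, had a log2FC of -0.15 at E12.5 (unadjusted p = 0.0168) and 0.15 at P5 (unadjusted p = 0.0817) between the genotypes. In Zcwpw1, 468 bases (8.21%) are shared with Pilra on the opposite strand, which was at or below 0.236 CPM in every group mean. The part of the overlap in either difference was not tested.

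Other near neighbours showed whether a difference extended along the chromosome. Alyref, which starts 56 bases from Anapc11 on the opposite strand and encodes an mRNA export factor, was at 0.025 at E12.5 and 0.040 at P5 on the log2 scale between the genotypes. Vegfb and Nudt22, which flank Dnajc4 at 260 and 515 bases on the same strand, were at 0.047 and 0.044 at P5. Ube2m and Trim28 beside Chmp2a were at 0.073 and -0.012, and Magoh and Cpt2 beside 0610037L13Rik at 0.013 and -0.090. Mepce, 143 bases from Zcwpw1 on the opposite strand, was at 0.0085 at E12.5, where Zcwpw1 was at 0.57, and at 0.15 at P5 (unadjusted p = 0.0152). Neighbours with a larger value at P5 were Pcyt2 beside Anapc11 (0.20, unadjusted p = 6.39e-04), Ptges2 beside 1110008P14Rik (0.18, unadjusted p = 0.00879) and Drd1, which encodes a dopamine receptor, 16187 bases from Sfxn1 (-0.37, unadjusted p = 5.26e-04). None of these neighbours passed edgeR's adjusted threshold between the genotypes, which of all genes only Chd8 passed at each stage.

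Partners and relatives of 8 of the 10 genes were taken as 142 genes in lists that leave out the 10 themselves. Between the genotypes edgeR called 0 of the 130 listed genes tested at E12.5 and 0 of 132 at P5. Over all genes it called 1 at each stage, Chd8 itself, so that 0 calls in a list say little. At an unadjusted p under 0.05, 4 and 24 of the listed genes passed, against 5.15% and 17.8% of all genes. Of 18 other APC/C subunits and cofactors, 2 passed unadjusted at P5, namely Anapc16 (0.14, adjusted p = 0.155) and Anapc1 (-0.098, adjusted p = 0.207), beside 0.35 for Anapc11. With length offsets, 2 of the 18 were higher and 0 lower at an unadjusted p under 0.05. Of 20 other ESCRT genes, 3 passed unadjusted, all higher, among them Chmp1a (0.18, adjusted p = 0.113) and Vps25 (0.42, adjusted p = 0.225). Of 24 other DNAJC co-chaperones, Dnajc17 (0.21, adjusted p = 0.247) and Dnajc6 (-0.10, adjusted p = 0.248) passed unadjusted.

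Among 16 other DExH-box helicases at P5, 7 passed unadjusted (17.8% of all genes did), 6 of them lower like Dhx9, and the median of the list was -0.041 beside 0.0017 for all genes. With length offsets 3 were lower and 2 higher at an unadjusted p under 0.05, and the medians were -0.017 and 0.017. The smallest p belonged to Dhx34 (0.33, adjusted p = 0.0950), a factor of nonsense-mediated decay, and to the splicing helicase Dhx15 (-0.19, adjusted p = 0.110), one higher and one lower. Of 6 tested genes of GM-CSF, IL-3 and IL-5 signaling, Jak2, the kinase bound to these receptors, had the smallest p (-0.15, adjusted p = 0.116), and Stat5a was at -0.20 (adjusted p = 0.626), beside 0.38 for Csf2ra. At E12.5, none of 20 nuclear envelope genes and none of 15 sideroflexin and one-carbon genes passed even unadjusted. The closest were Lmnb2 (-0.084) and Nup35 (0.10) around Tmem209, and Mthfd2 (-0.11) and Sfxn5 (-0.15) around Sfxn1. Of 10 meiotic and cohesin genes tested at E12.5 around Zcwpw1, Rec8, a meiotic cohesin, was lower at 7.44 against 9.15 CPM (log2FC -0.30, adjusted p = 0.942), and Msh4 was at -0.40 (adjusted p = 0.942). At P5 edgeR called 0 genes of these 3 lists and only Chd8 of all genes, while 17.8% of all genes passed unadjusted. Of 13 meiotic and cohesin genes, 2 passed unadjusted, both higher, and the list's median log2FC was 0.22 beside 0.0017 for all genes and 0.40 for Zcwpw1. Some of this list were at low levels, such as Rad21l at 0.526 and Msh5 at 0.787 CPM in Chd8+/+ libraries at P5. Of 20 nuclear envelope genes, 5 passed unadjusted, all 5 lower (median -0.043), while Tmem209 was at 0.17, and with length offsets 1 was higher and 1 lower. Of 15 sideroflexin and one-carbon genes, 2 passed unadjusted, both higher (median 0.048), beside -0.054 for Sfxn1.

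Over development edgeR called 113 of the 133 listed genes tested in Chd8+/+ and 114 in Chd8+/-, near the 83.1% and 82.9% of all genes. The values of the 10 genes are given beside those of their lists, and a difference of a gene from its list was not tested. In Chd8+/+, where 41.4% of all genes rose and 41.7% fell, 16 of 18 APC/C genes fell and 1 rose (median log2FC -0.95), led by the mitotic ubiquitin-conjugating enzyme Ube2c (-4.39), while Anapc11 was at -0.11. The coactivator Fzr1, which also acts in cells that have left the cycle, was the 1 that rose (0.14, adjusted p = 0.0175). With length offsets, which moved the median of all genes to -0.24, all 18 fell and Anapc11 was at -0.38 (adjusted p = 1.67e-04). Of 20 nuclear envelope genes, 17 fell (median -1.34), led by the lamina-associated Tmpo (-3.49), as did Tmem209 (-1.50), and Syne1 rose by 3.75. Of 16 DExH-box genes, 14 fell (median -0.56), with Dhx40 at -1.60 beside -1.59 for Dhx9 and Dhx57 rising by 0.82. 

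The other lists in Chd8+/+ are read against the same 41.4% of all genes rising and 41.7% falling. The DNAJC list had 16 falling and 6 rising genes of 25 (median -0.28), from the histone chaperone Dnajc9 (-2.27) to the clathrin uncoating factor Dnajc6 (3.12), with Dnajc4 at -0.17. The ESCRT list was divided, with 7 of 20 genes rising, led by Chmp2b (1.76), and 9 falling, led by Mitd1 (-0.95), beside 0.26 for Chmp2a. Of 15 sideroflexin and one-carbon genes, 4 rose and 8 fell, from Shmt1 (-3.34), the cytosolic serine hydroxymethyltransferase, to Aldh1l1 (6.19), an enzyme known from astrocytes, with Sfxn1 at 0.023. Of the 6 tested genes of GM-CSF signaling, Csf2rb2 rose by 0.84 (adjusted p = 0.00893) and Stat5b fell by 0.38 (adjusted p = 4.23e-04), while 4 of the list rose under RLE scaling and none with length offsets. Of 13 meiotic genes, 5 rose, among them Rad21l (3.36, at 0.526 CPM at P5), and 4 fell, led by Msh5 (-2.82), beside -0.99 for Zcwpw1.

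**Figure D5:**
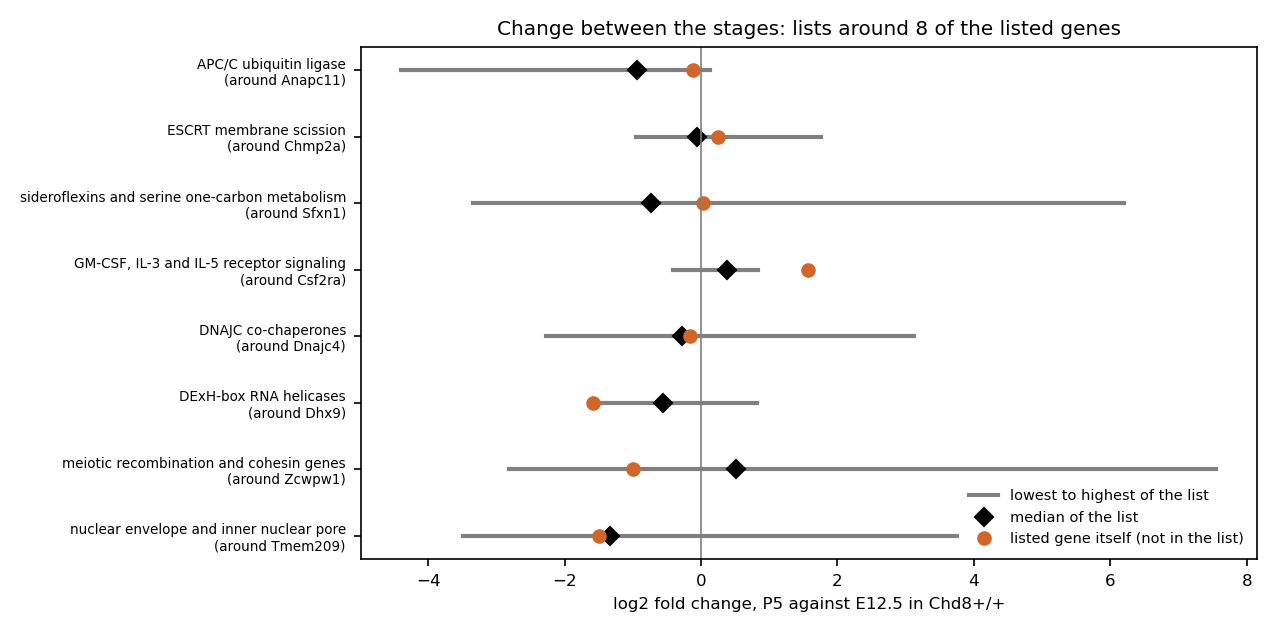
Log2 fold change of P5 against E12.5 in Chd8+/+ (horizontal axis) of the genes listed around 8 of the 10 genes. Grey lines run from the lowest to the highest gene of a list, black diamonds are its median and orange points the gene the list was drawn around. Anapc11 (-0.11) lies to the right of its list's median (-0.95), Tmem209 (-1.50) and Dhx9 (-1.59) to the left of theirs, and Csf2ra (1.56) beyond the highest of its list.

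Markers of other cell types were summed in each library because Csf2ra is known from microglia. All 11 microglial markers were detected, and their summed level was 53.1 to 57.3 CPM in Chd8+/+ and 50.1 to 54.6 CPM in Chd8+/- libraries at E12.5. At P5 it was 176 to 233 and 176 to 203 CPM, and the genotypes overlapped. Csf2ra was chosen for its separation at that stage, and a part of microglia in it was not tested. All 11 markers rose between the stages (median log2FC 1.85 in Chd8+/+ and 1.97 in Chd8+/-), as did 41.4% and 41.3% of all genes, beside 1.56 and 1.82 for Csf2ra. The summed markers of the genotypes did not overlap at P5 for striatal neurons (290 to 311 against 207 to 261 CPM, 8 markers), choroid plexus (447 to 579 against 325 to 384 CPM, 8 markers) and endothelium (308 to 329 against 257 to 291 CPM, 9 markers), all lower in Chd8+/-. Interneuron markers were also lower (703 to 725 against 602 to 681 CPM), and at E12.5 endothelial markers were (401 to 415 against 357 to 372 CPM). At E12.5, 9 of 9 endothelial markers were below 0. Of these 4 had an unadjusted p under 0.05, as had 2 of 9 interneuron markers and 5.15% of all genes. No single marker of these lists passed edgeR's adjusted threshold between the genotypes, which of all genes only Chd8 passed at each stage. At P5, 8 of 8 striatal, 7 of 8 choroid plexus, 8 of 9 endothelial and 3 of 9 interneuron markers had an unadjusted p under 0.05, as did 17.8% of all genes. So did 4 of 8 progenitor markers (7 of 8 below 0, summed 251 to 281 against 239 to 258 CPM) and 3 of 5 tested erythrocyte markers (4 of 5 below 0, summed 122 to 131 against 106 to 125 CPM), lists whose sums overlapped between the genotypes. Their part in the differences of the 10 genes was not tested. Markers of cortical excitatory neurons, which identify the labelled tissue, were at 1280 to 1380 and 1270 to 1340 CPM, and no marker of any list was at 0 in a group. Progenitor markers fell from 3340 to 3570 CPM at E12.5 to 251 to 281 CPM at P5 in Chd8+/+ libraries.

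For each gene the 3 genes with the most similar pattern over the 12 libraries were listed, by Pearson correlation of log2 CPM, as a description without a p. The points share libraries and stage, so that any gene with a large stage change finds close matches. Dhx9 was closest to Ctnnb1, which encodes beta-catenin (r = 0.999), 1110008P14Rik to AI413582 (0.999), Csf2ra to Ocel1 (0.997) and to Lst1 (0.996), and Tmem209 to Ercc6l2, Eya4 and Cep63 (0.994 each). Zcwpw1 was closest to Pgap2 (0.980) and Chmp2a to Dcaf11 (0.974). For the genes with little stage change the best matches were weaker, with Pdcd6 for 0610037L13Rik (0.928), Pgap3 for Dnajc4 (0.919), Bola2 for Anapc11 (0.905) and 4921507P07Rik for Sfxn1 (0.883). Anapc11 was itself the second closest gene to Dnajc4 (0.873).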

How the data were processed

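Neocortex RNA of 12 mouse libraries (4 groups of 3, 2 sequencing runs each) was sequenced in pairs of reads, and the authors deposited raw counts of reads per Ensembl gene, 1 table for each stage. According to the submitters' processing notes and the study's methods, reads were checked with FastQC 0.11.2, trimmed with Trim Galore 0.4.1, aligned to GRCm38.p4 (mm10) with TopHat2 2.1.0 and counted with featureCounts 1.5.0. Runs of a library were summed, because they differed by little more than sampling noise. Symbols were matched by Ensembl identifier (46005 of 46603), and start regions came from RefSeq by symbol or synonym. Neighbours and exonic lengths came from the count tables.

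Genotype was tested within each stage and stage within each genotype of a 12-library model, with edgeR 4.0.16 in R 4.3.3 (filterByExpr, TMM, quasi-likelihood test, two-sided, Benjamini-Hochberg threshold 0.05). The study used DESeq2, which was an alternative here (1.42.0). Others were RLE and upper-quartile scaling, every gene with at least 1 count, loess offsets for gene length (span 0.5), a replicate block, all 12 libraries or single genotypes in 1 model, leaving out each library, and, added after seeing the data, a term for the 4 libraries above 100 CPM of Xist. The tests were checked on simulated data. Similar genes were the 3 with the highest Pearson correlation of log2 CPM (prior count 2). Named genes of each list were the 2 with the smallest p between the genotypes at the stage that chose the member and the 2 with the largest called change between the stages in Chd8+/+, 1 in each direction where both occurred. Neighbours were overlapping genes and the nearest tested gene on each side. The 10 genes and all lists were chosen with earlier results of these data known. Tables and plots used Python 3.11.15, pandas 2.3.3, numpy 2.4.6 and matplotlib 3.10.9.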

Additional observations from a re-analysis of the deposited data

How the results depend on the processing

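Where the comparison had not chosen the gene, 94 of 98 alternative values of the genotype difference at E12.5, 41 of 42 at P5, 193 of 200 of the stage change in Chd8+/+ and 194 of 200 in Chd8+/- kept their direction and their side of the threshold. At the stage that chose the gene, all 42 values at E12.5 and 98 at P5 kept their direction, but not their side of the threshold. DESeq2 called 3 of 3 and 7 of 7 there, edgeR on every gene with at least 1 count 2 and 7, all 12 libraries in 1 model 1 and 1, and edgeR without P5 Chd8+/- replicate 2 called 6 of 7. The number of E12.5-chosen genes called at P5 went from 0 to 1 (Zcwpw1) when every gene with at least 1 count was tested. With gene length offsets the stage log2FC of Sfxn1 turned to -0.26 in Chd8+/+ and -0.067 in Chd8+/-, and that of Anapc11 to -0.16 in Chd8+/-. Leaving out single libraries gave -0.015 to 0.042 for Sfxn1 between stages in Chd8+/+, -0.016 to 0.11 for Anapc11 between stages in Chd8+/-, -0.0074 to 0.038 for Dhx9 at E12.5 and -0.065 to 0.044 for 1110008P14Rik at E12.5. The offsets take out the whole fitted trend of a library, its level included, and moved the median stage log2FC of all genes as well. Which part of a turn goes with gene length was not tested. Over all genes, edgeR called 1 gene at P5, DESeq2 653, edgeR on every gene with at least 1 count 995, and edgeR without P5 Chd8+/- replicate 2 called 327. At E12.5 the first 3 of these counts were 1, 5 and 13. With all 12 libraries in 1 model edgeR called 2 of 19676 genes at E12.5 and 4 at P5.

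With a replicate block, 0 of the 7 and 0 of the 3 genes passed between the genotypes at the stage that had not chosen them, 7 and 8 of 10 passed between the stages in Chd8+/+ and Chd8+/-, and 0 of 10 at the stage that chose them. Over all genes the block moved the calls from 1 to 0 at E12.5 and from 1 to 4 at P5. Same-numbered libraries correlated at -0.156 to -0.0494 at E12.5, 0.0384 to 0.187 at P5, -0.13 to 0.133 between stages in Chd8+/+ and 0.0446 to 0.191 in Chd8+/-. In no comparison were all 3 pairs above 0.1, and the numbers were not taken as pairs. Both P5 libraries numbered 1, the pair at 0.187, had high Xist counts. The small differences rest on 3 libraries a group with a biological coefficient of variation of 9.18% at E12.5 and 7.42% at P5, and the lowest member, Zcwpw1, on 183 to 724 counts a library.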
